A study of Mus musculus with 15 samples.

Results

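The proteasome genes were followed across sorted mouse islet cells. They were chosen by symbol as the entries that start with *Psma*, *Psmb*, *Psmc*, *Psmd*, *Psme*, *Psmf* or *Psmg*, and no pseudogene matched. This gave 49 genes of 23699 entries per library, of which 19 belong to the core (*Psma* and *Psmb*), 21 to the regulatory group (*Psmc* and *Psmd*), 4 to the activators (*Psme*) and 4 to the assembly group (*Psmg*), with the inhibitor *Psmf1* on its own. Their mRNA was present at appreciable levels, and 47 had a mean of at least 1 FPKM (a fragment count scaled to transcript length and to library size) and were tested. The other two, *Psma8* and *Psmb11*, the testis and thymus forms of a core subunit, were at 0 in every library but for 1 of *Psmb11* and were not tested. Not every gene of the rule encodes a proteasome part. *Psmc3ip* encodes a recombination protein that binds a proteasome ATPase, while *Psmd5*, *Psmd9* and *Psmd10* encode chaperones that help to build the regulatory particle.

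The proteasome is the cell's main protease for proteins tagged with ubiquitin. Its barrel-shaped core is built of alpha and beta subunits, and the beta subunits *Psmb5*, *Psmb6* and *Psmb7* hold the cutting sites. Interferon-inducible subunits (*Psmb8*, *Psmb9* and *Psmb10*) can take their places and make the immunoproteasome, which produces peptides for MHC class I. A regulatory particle with ATPases (*Psmc*) and non-ATPase subunits (*Psmd*) binds, unfolds and admits the substrate, and activators (*Psme*) can take its place at the ends of the barrel. In beta cells, which make insulin at a high rate, this pathway clears misfolded proinsulin exported from the endoplasmic reticulum.

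The study asked how islet beta cells with high aldehyde dehydrogenase activity differ from those without it, and what loss of the Foxo transcription factors adds. Islets were dispersed, incubated with the fluorescent ALDH substrate aldefluor and sorted for aldefluor and for red fluorescent protein (RFP), switched on by cre. With cre under the insulin promoter (Rip-cre) RFP marks beta cells and their descendants, and with Pdx-cre it can also mark other cells of the pancreas. Poly-A RNA of the RFP+ ALDH- and RFP+ ALDH+ cells was sequenced from control mice, labelled heterozygous for Foxo1, Foxo3 and Foxo4, and from mice labelled knockout for all 3 genes, on a mixed 129J and C57BL/6 background. The 15 libraries comprised 3 of control ALDH- cells, 2 of control ALDH+ cells, 5 of knockout ALDH- cells and 5 of knockout ALDH+ cells. Rip-cre, driven by the insulin promoter, was used in 9 of them (control ALDH- libraries 1 and 2, control ALDH+ library 1 and knockout libraries 1 to 3 of each population), and Pdx-cre, active in the precursors of the whole pancreas, in the other 6. The study's methods give an age of 6 months, islets of many animals per genotype and littermate controls for the Rip-cre mice, and describe controls without Foxo deletion, which differs from the heterozygous genotype in the labels. Age was not given in the sources used here for the Pdx-cre mice. The labels do not say which libraries came from separate sorts or animals, so p-values measure the spread between libraries, which may be technical.

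Depth was even, with 7492220 to 10058043 fragments per library recovered from the deposited confidence intervals, and the proteasome genes took 0.273% to 0.474% of them. *Foxo1* stood at 12.1 to 19.3 FPKM in the 5 control libraries and at 0.0976 to 4.06 in the 10 knockout libraries. *Foxo3* stood at 13.9 to 22.1 and at 10.04 to 31.1, and overlapped. *Foxo4* was at or under 1.29 FPKM throughout. *Aldh1a3* ranged from 22.3 to 78.2 in ALDH+ libraries and from 0.483 to 4.20 in ALDH- libraries. The beta cell hormone gene *Iapp* was abundant, at 32065 to 120645 FPKM, and endothelial and mesenchymal markers stayed at or under a summed 1.48 and 1.15 FPKM. The insulin genes were not analysed here. Alpha cell markers summed to 278 to 39061 FPKM in Pdx-cre libraries and to 155 to 1025 FPKM in Rip-cre libraries. Acinar transcripts stood apart in 3 Pdx-cre libraries, with a summed 1404 FPKM in control ALDH+ library 2, 390.0 in knockout ALDH- library 5 and 685.0 in knockout ALDH+ library 5, against at most 9.24 in the others.

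Sequences before the start sites of 4 genes are shown because they carry the 2 motifs described here, in genes whose levels the results turn on: *Psma6* and *Psmd2* fell in ALDH+ cells, and *Psmb6* and *Psmb5* encode cutting subunits. Each gives the 250 bases before the RefSeq start (build GRCm38.p6), in the direction of the gene, with the motif match in capitals. All 4 windows run into an annotated transcript.
*Psma6* (chr12:55398575-55398824, + strand): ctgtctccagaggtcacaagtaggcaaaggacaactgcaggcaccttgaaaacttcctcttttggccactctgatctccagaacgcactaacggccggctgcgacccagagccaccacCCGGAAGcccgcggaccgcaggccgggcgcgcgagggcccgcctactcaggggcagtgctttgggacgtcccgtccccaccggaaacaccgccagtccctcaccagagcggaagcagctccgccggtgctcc
*Psmd2* (chr16:20651402-20651651, + strand): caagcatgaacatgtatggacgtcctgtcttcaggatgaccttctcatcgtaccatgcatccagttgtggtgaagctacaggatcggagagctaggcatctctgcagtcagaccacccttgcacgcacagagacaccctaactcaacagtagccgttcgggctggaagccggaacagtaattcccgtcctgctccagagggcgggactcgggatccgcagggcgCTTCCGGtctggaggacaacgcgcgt
*Psmb6* (chr11:70525107-70525356, + strand): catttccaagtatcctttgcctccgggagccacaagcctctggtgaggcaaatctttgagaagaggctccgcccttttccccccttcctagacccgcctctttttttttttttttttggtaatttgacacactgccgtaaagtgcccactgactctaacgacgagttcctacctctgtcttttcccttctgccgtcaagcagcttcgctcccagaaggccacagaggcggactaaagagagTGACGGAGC
*Psmb5* (chr14:54617996-54618245, - strand): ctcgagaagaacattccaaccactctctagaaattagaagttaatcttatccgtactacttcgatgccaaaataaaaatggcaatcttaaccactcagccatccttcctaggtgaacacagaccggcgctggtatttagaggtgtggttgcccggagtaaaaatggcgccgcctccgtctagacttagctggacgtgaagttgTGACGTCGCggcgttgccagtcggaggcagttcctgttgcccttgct
In *Psma6* and *Psmd2* the capitals mark CCGGAAG or its reverse complement, the core bound by ETS factors. In *Psmb6* and *Psmb5* they mark TGACNNNGC, the core of the antioxidant response element to which the NFE2L1 and NFE2L2 factors bind.

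RefSeq entries were found for 41 of the 49 genes. The search covered 6 motifs on both strands of the 250 bases, and CCGGAAG was singled out after the shares were seen. CCGGAAG stood before 13 of the 41 genes (31.7%), against 7.83% of the 27025 genes with an entry and 16.5% of the 9014 tested genes with an entry. It was found before *Psma6*, *Psmc1*, *Psmc2*, *Psmc6*, *Psmc3ip*, *Psmd2*, *Psmd4*, *Psmd6*, *Psmd11*, *Psmd12*, *Psme3*, *Psme4* and *Psmg1*. TGACNNNGC stood before 5 genes (12.2%), namely *Psmb5*, *Psmb6*, *Psmc6*, *Psmd9* and *Psmd12*, against 11.5% of all and 13.9% of tested genes. The related TGAGNNNGC was found before 24.4% of the proteasome genes, against 16.3% of all and 19.2% of tested genes. CCAAT, the box bound by NF-Y, stood before 36.6%, against 37.5% and 40.7%. The NRF1 palindrome was found before 2.44% (*Psma2*), against 0.877% and 1.99%. The core of the interferon-stimulated response element was found before 7.32% (*Psmb3*, *Psmd4* and *Psmd9*), against 3.46% and 2.92%, and the inducible *Psmb8*, *Psmb9* and *Psmb10* had no match in this window. Of the 10 genes that fell in ALDH+ cells and have an entry, 2 held CCGGAAG and 1 held TGACNNNGC.

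Levels differed widely among the proteasome genes. On the FPKM scale, which is per length, *Psmb4*, a structural beta subunit, had the highest mean over the 15 libraries at 236, followed by the alpha subunit *Psma7* at 222 and the beta subunit *Psmb2* at 196.5, and ranges of these 3 overlapped. At the other end of the tested genes were *Psmd9* at 4.83 and the assembly chaperone *Psmg3* at 11.8, resting on 57 to 233 and 24 to 130 fragments per library. The core summed to 975 to 2448 FPKM per library and the regulatory group to 712 to 1178 FPKM. Once group and cre driver were taken out, the SD between libraries on the log2 scale had a median of 0.277 over the proteasome genes, against 0.392 over all 11253 tested genes. The inhibitor *Psmf1* and the activator *Psme4* varied least, at 0.131 and 0.143, while *Psmc3ip* varied most at 0.994, followed by *Psmb9* at 0.773. *Psmd1*, *Psmc3ip*, *Psma3*, *Psmb5*, *Psme1* and *Psma4* overlap another entry of the tables, and how strand was treated in counting is not given in the sources used here, so their values are less certain.

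Proteasome genes were lower in ALDH+ than in ALDH- cells. Averaged over genotypes with the cre driver in the model, 12 of the 47 passed the test, all of them lower in ALDH+ cells, against 3.76% of all tested genes called lower, 2.22% called higher and 5.98% called in either direction (limma, Benjamini-Hochberg adjusted p under 0.05). The median log2 fold change of the 47 genes was -0.35, against -0.02 over all tested genes, and 46 had a negative value, against 52.3% of all genes. By group, 7 of 17 core genes fell (median -0.45), as did 4 of 21 regulatory genes (median -0.29) and 1 of 4 assembly genes (median -0.58). None of the 4 activators passed (median -0.21), and 2 had an unadjusted p under 0.05, as did 2339 of all 11253 tested genes. The calls depended on single libraries, and leaving out 1 library at a time gave 0 to 13. Without control ALDH+ library 1, which leaves 1 control ALDH+ library, the median was -0.28. The study had already listed some proteasome genes as lower in wild-type ALDH+ cells of these data, so their fall is no independent test. Fewer cells of a type and less RNA per cell cannot be told apart in such bulk samples.

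Signs of RNA make-up moved with the same comparison. The 5 transcripts that stay in the nucleus (*Malat1*, *Neat1*, *Meg3*, *Kcnq1ot1* and *Snhg11*) were all higher in ALDH+ cells, with log2 fold changes of 1.29 to 2.44 and adjusted p of 0.00349 to 0.00766 (limma), and their summed level was 2033 to 4834 FPKM in ALDH+ and 263 to 1597 FPKM in ALDH- libraries. The study had already named these 5 among the top transcripts raised in ALDH+ cells of the same data, so their rise is no independent test. Control ALDH+ library 1 and knockout ALDH+ library 3, with the smallest shares of fragments from proteasome genes (0.273% and 0.282%), held the highest sums, 4774 and 4834 FPKM. Without these 2 libraries, a setting chosen after seeing the data, the median was -0.24. Both are ALDH+ and were picked for their small proteasome share, so leaving them out is bound to shrink the fall. It also leaves 1 control ALDH+ library. Of the hormone genes of other islet cells, *Ppy* (-2.10 ± 0.45, adjusted p of 0.0131) and *Pyy* (-2.07 ± 0.53, 0.0298) were lower in ALDH+ cells, while *Iapp* of beta cells did not pass (-0.75 ± 0.40, 0.311). The part of nuclear RNA or of other cells in the result was not tested.

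Transcript length moved with the comparison too. Over all tested genes the median log2 fold change went from -0.40 for transcripts under 1000 bases to 0.11 for those of 4000 bases or more, and the tested proteasome genes had a median length of 1883 bases, against 3341. Within each length class below 4000 bases the proteasome genes had the lower median: -0.62 against -0.40 under 1000 bases, -0.43 against -0.23 from 1000 to under 2000, and -0.24 against -0.06 from 2000 to under 4000. With the length trend of each library taken out, 1 of the 47 genes passed and the median was -0.19. The plot of fold change by transcript length sets both curves side by side.

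**Figure D1:**
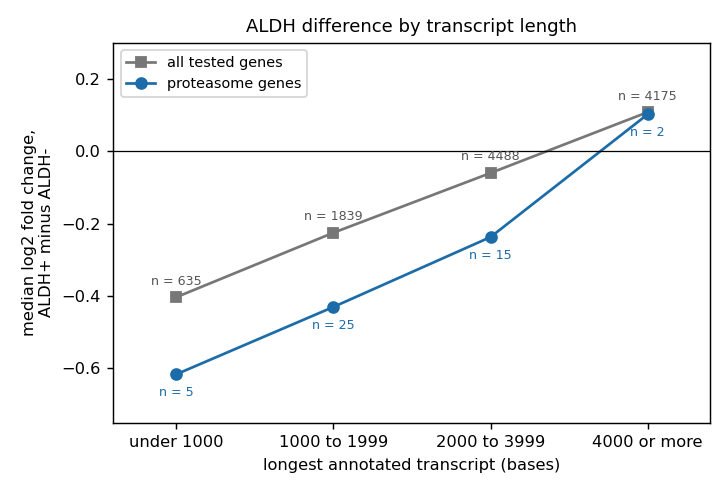
Median log2 fold change (ALDH+ minus ALDH-) of all tested genes (grey squares) and of the proteasome genes (blue circles) by class of longest annotated transcript, with the number of genes at each point. Both curves rise with length, the proteasome genes from -0.62 to 0.10, and only 2 of them are in the longest class.

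Of the core, *Psma6*, an alpha subunit of the ring through which substrates enter (chr12:56499811-56519446, mm9), had the smallest p among the proteasome genes. *Psma6* stood at 197, 188.5 and 227 FPKM in control ALDH- cells and at 75.2 and 142 FPKM in control ALDH+ cells. The knockout libraries held 139, 129, 170, 188 and 270 (ALDH-) and 121, 148, 103, 171 and 197 (ALDH+). Both control ALDH+ libraries were below all 3 control ALDH- libraries, while the knockout groups overlapped, and within each of the 4 groups the Pdx-cre libraries were the highest. The log2 fold change was -0.66 ± 0.13 (SE), an adjusted p of 0.00885, and it passed in 14 of the 15 fits that left out 1 library each.

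*Psmb4*, a beta subunit without a cutting site (chr3:94688245-94690880), was lower in ALDH+ cells as well. *Psmb4* stood at 237.5, 266 and 351 FPKM in control ALDH- cells and at 96.4 and 208.5 FPKM in control ALDH+ cells. Knockout values were 205, 207, 284, 278 and 418.5 in ALDH- cells and 212, 219, 95.6, 245 and 220 in ALDH+ cells. Control ALDH+ library 1 and knockout ALDH+ library 3 were far below all the others. The log2 fold change was -0.80 ± 0.19, with an adjusted p of 0.0207, and it passed in 13 of the 15 leave-one-out fits.

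The other core genes that fell were *Psmb6* (-0.69 ± 0.16, adjusted p of 0.021 in limma), *Psma7* (-0.48 ± 0.13, 0.037), *Psmb2* (-0.46 ± 0.13, 0.0486), *Psmb10* (-0.93 ± 0.27, 0.0488) and *Psma5* (-0.60 ± 0.17, 0.0489). *Psmb2* and *Psma5* are structural subunits of the beta and alpha rings, and the last 3 of these genes lay close to the threshold. Of the 15 fits that left out 1 library, *Psmb6* passed in 13, *Psma7* in 4, *Psmb10* and *Psma5* in 3 and *Psmb2* in 2. The value of *Psmb10* was -0.40 without control ALDH+ library 1, where it did not pass, and -1.41 without control ALDH+ library 2, where it did. The remaining core genes ranged from -0.54 (*Psmb1*) to -0.10 (*Psma4*) and did not pass.

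In the regulatory particle, *Psmd8*, a lid subunit (chr7:29959205-29965692), came next by p. *Psmd8* stood at 62.7, 51.7 and 62.4 FPKM in control ALDH- cells and at 25.1 and 38.7 FPKM in control ALDH+ cells. In the knockouts it measured 41.2, 48.5, 51.8, 62.1 and 98.6 in ALDH- and 41.9, 41.7, 40.3, 58.3 and 60.2 in ALDH+ libraries. The control ALDH+ libraries lay below the control ALDH- libraries, and the knockout groups overlapped, with knockout ALDH- library 5 the highest of all. The log2 fold change was -0.62 ± 0.13, with an adjusted p of 0.0117, passing in 14 of the 15 leave-one-out fits, as *Psmd2* did.

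*Psmd2*, one of the large base subunits that receive ubiquitin-like proteins (chr16:20651724-20663487), was lower in ALDH+ cells. *Psmd2* stood at 42.9, 40.2 and 51.4 FPKM in control ALDH- cells and at 26.3 and 32 FPKM in control ALDH+ cells. In knockouts it stood at 34.3, 47.2, 36.4, 48 and 51.8 in ALDH- cells and at 30.7, 32.6, 27.3, 28.1 and 37.4 in ALDH+ cells. Control groups did not overlap, and in the knockouts 1 ALDH+ library, number 5, lay within the ALDH- range. The log2 fold change was -0.55 ± 0.12 (adjusted p of 0.0133), with -0.64 ± 0.20 in controls and -0.46 ± 0.13 in knockouts.

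The lid subunit *Psmd13* (-0.73 ± 0.18, adjusted p of 0.0279 in limma) and the ATPase *Psmc5* (-0.43 ± 0.12, 0.0457) also fell, passing in 12 and 3 of the 15 leave-one-out fits. *Psmc5* was the one proteasome gene for which every knockout ALDH+ library, at 95.2 to 127.5 FPKM, lay below every knockout ALDH- library, at 127.6 to 150.3 FPKM, a separation seen in 0.951% of all tested genes. In controls, 22 of the 47 genes were separated in this way, against 17.1% of all genes. None of the 47 had all 7 ALDH+ libraries below all 8 ALDH- libraries, against 0.293%. The ALDH+ mean was below the ALDH- mean in all 4 combinations of genotype and cre driver for 27 of the 47, against 17.0%.

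Of the assembly group, *Psmg2*, which pairs with *Psmg1* to start the alpha ring, fell (-0.55 ± 0.15, adjusted p of 0.0345), passing in 7 of the 15 leave-one-out fits. *Psmg2* stood at 27.4, 35.1 and 16.2 FPKM in control ALDH- cells and at 19 and 13.3 FPKM in control ALDH+ cells. The knockout libraries held 33.1, 27.4, 36.4, 25 and 17.2 (ALDH-) and 22.7, 24.3, 16.4, 14.9 and 12.4 (ALDH+). Within ALDH- and within ALDH+ cells, every Pdx-cre library lay below every Rip-cre library. *Psmg4* (-0.87 ± 0.28, 0.0765), *Psmg1* (-0.61 ± 0.33, 0.309) and *Psmg3* (-0.24 ± 0.25, 0.658) had negative values that did not pass.

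**Figure D2:**
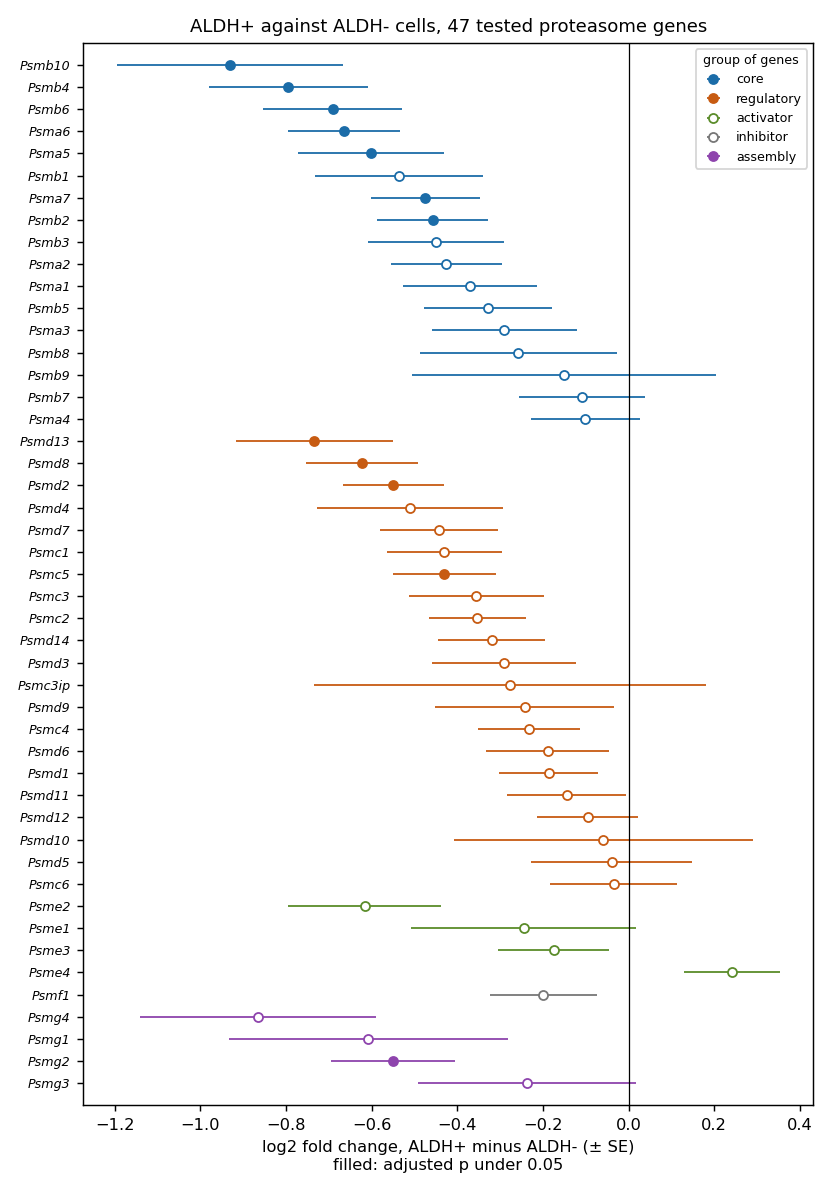
Log2 fold change (ALDH+ minus ALDH-, averaged over genotypes, bars ± SE) of the 47 tested proteasome genes, coloured by group and filled where the adjusted p was under 0.05. All but *Psme4* lie left of 0, and the 12 filled points run from -0.93 (*Psmb10*) to -0.43 (*Psmc5*).

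Of the activators, *Psme4*, the large nuclear activator PA200 (chr11:30671774-30780361), was the one tested gene with a positive value in the ALDH comparison. *Psme4* stood at 36.1, 34.7 and 22.9 FPKM in control ALDH- cells and at 46.9 and 33.6 FPKM in control ALDH+ cells. Knockout values were 41.3, 45.6, 36.6, 34.3 and 28.1 in ALDH- cells and 36.3, 42, 46, 35.8 and 32.1 in ALDH+ cells. The groups overlapped, and the log2 fold change of 0.24 ± 0.11 did not pass (adjusted p of 0.232). Its transcript is 6491 bases long, in the class where the median over all genes was 0.11.

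*Psme1* and *Psme2* form the interferon-inducible cap PA28. *Psme1* stood at 89.2, 98.6 and 207 FPKM in control ALDH- cells and at 71 and 148 FPKM in control ALDH+ cells. In the knockouts it measured 136, 237, 82.4, 143 and 154 in ALDH- and 98.3, 143, 195, 88 and 120.5 in ALDH+ libraries. *Psme1* varied widely within each group, with a log2 fold change of -0.25 ± 0.26 (adjusted p of 0.658). *Psme2* stood at 41.2, 37.7 and 63.5 FPKM in control ALDH- cells and at 20.9 and 41.7 FPKM in control ALDH+ cells. In knockouts it stood at 27.9, 50.8, 61.7, 65.4 and 86.2 in ALDH- cells and at 32.3, 44.5, 27.5, 39.7 and 54.1 in ALDH+ cells. Control ALDH+ library 1 held the lowest *Psme2* level while library 2 lay within the control ALDH- range, and its log2 fold change of -0.62 ± 0.18 lay just outside the threshold (0.0536). *Psme3* encodes the nuclear activator PA28 gamma. *Psme3* stood at 44.1, 43.2 and 41.7 FPKM in control ALDH- cells and at 49.8 and 41.7 FPKM in control ALDH+ cells. The knockout libraries held 45.9, 51.3, 49.6, 58.4 and 59.4 (ALDH-) and 41.5, 47.9, 33.5, 29.4 and 44.3 (ALDH+). In knockouts 4 of 5 ALDH+ libraries lay below all ALDH- libraries, while controls overlapped. Its log2 fold change was -0.44 ± 0.15 in knockouts (adjusted p of 0.231) and 0.09 ± 0.22 in controls (0.917), and the test of the difference between genotypes gave an adjusted p of 0.998.

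*Psmf1*, the inhibitor PI31, was steady. *Psmf1* stood at 15.1, 17.7 and 16.4 FPKM in control ALDH- cells and at 12 and 12.2 FPKM in control ALDH+ cells. Knockout values were 16.1, 13.5, 16.1, 18.2 and 15.7 in ALDH- cells and 15.9, 13.2, 16.7, 17.9 and 18.2 in ALDH+ cells. The 2 control ALDH+ libraries were the lowest of all, the knockout groups overlapped, and the log2 fold change was -0.20 ± 0.13 (adjusted p of 0.396).

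The catalytic subunits were compared as pairs, each inducible one with the standard one it replaces. *Psmb8* stood at 19.6, 15.6 and 53.1 FPKM in control ALDH- cells and at 9.53 and 30.6 FPKM in control ALDH+ cells. In the knockouts it measured 14.2, 30.2, 14, 25.4 and 32.1 in ALDH- and 24.5, 24.3, 10.8, 38.9 and 39.6 in ALDH+ libraries. Of its pair with *Psmb5*, *Psmb8* made up 13.4% to 32.6% per library, and ALDH+ and ALDH- libraries overlapped. *Psmb5* stood at 89.2, 101 and 158 FPKM in control ALDH- cells and at 53.8 and 118 FPKM in control ALDH+ cells. In knockouts it stood at 55.6, 87.8, 86, 82.3 and 112 in ALDH- cells and at 73.7, 75.8, 62.4, 80.2 and 105 in ALDH+ cells. Neither passed in the ALDH comparison, with -0.26 ± 0.23 for *Psmb8* (adjusted p of 0.584) and -0.33 ± 0.15 for *Psmb5* (0.219).

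*Psmb9* stood at 16.8, 42.4 and 67.6 FPKM in control ALDH- cells and at 28.5 and 41.1 FPKM in control ALDH+ cells. The knockout libraries held 13.7, 12.2, 68.8, 25.4 and 41.6 (ALDH-) and 19.9, 26.2, 16.1, 50.6 and 21.1 (ALDH+). *Psmb9* ranged widely within ALDH- cells, from 12.2 to 68.85 FPKM, and made up 13.7% to 37.6% of its pair with *Psmb6*, with a log2 fold change of -0.15 ± 0.36 (adjusted p of 0.857). *Psmb6* stood at 97.8, 109 and 144 FPKM in control ALDH- cells and at 47.3 and 82.1 FPKM in control ALDH+ cells. Knockout values were 79.6, 76.9, 125, 113 and 159 in ALDH- cells and 83.1, 82.7, 46.3, 89.6 and 116 in ALDH+ cells. The standard *Psmb6* fell, and control ALDH+ library 1 and knockout ALDH+ library 3 were its lowest.

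*Psmb10* stood at 24.6, 21.5 and 50.3 FPKM in control ALDH- cells and at 4.7 and 31.6 FPKM in control ALDH+ cells. In the knockouts it measured 25.6, 34.3, 30.3, 37.8 and 41.5 in ALDH- and 15.8, 33.7, 17.1, 19.8 and 31.7 in ALDH+ libraries. *Psmb10* was at its lowest in control ALDH+ library 1, with the other control ALDH+ library inside the control ALDH- range. *Psmb7* stood at 82.5, 142 and 155 FPKM in control ALDH- cells and at 104 and 122.5 FPKM in control ALDH+ cells. In knockouts it stood at 91.7, 100, 102, 83 and 148 in ALDH- cells and at 83, 89.2, 90.7, 123 and 119 in ALDH+ cells. The standard *Psmb7* overlapped between all groups (-0.11 ± 0.15, adjusted p of 0.738). The share of *Psmb10* in this pair was 4.32% to 27.4% in ALDH+ and 13.2% to 31.3% in ALDH- libraries.

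**Figure D3:**
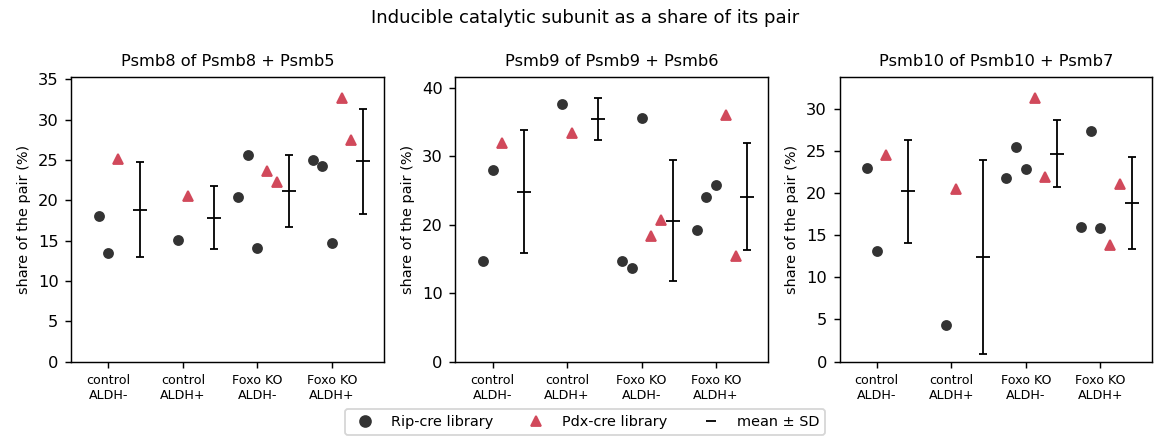
Share of the inducible subunit in the summed FPKM of its pair (per cent) in each library, by group, with Rip-cre libraries as dark circles, Pdx-cre libraries as red triangles and mean ± SD beside them. ALDH+ and ALDH- libraries overlap in all 3 pairs, and the lowest point is *Psmb10* at 4.32% in control ALDH+ library 1.

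Within controls alone the ALDH difference was larger in value than in knockouts. The median over the 47 genes was -0.53, against -0.03 over all tested genes, and 2 genes passed, both lower, against 0.755% of all genes called lower, 0.462% called higher and 1.22% in either direction: *Psma6* (-1.07 ± 0.22, adjusted p of 0.0359 in limma) and *Psmd8* (-0.98 ± 0.22, 0.0413). Neither was called without control ALDH- library 1, 2 or 3, control ALDH+ library 1 or knockout ALDH- library 1. The study's own test of counts had compared wild-type ALDH+ and ALDH- cells of the same data. Among the genes it listed as lower in ALDH+ cells were *Psma2*, *Psma6*, *Psmb1*, *Psmb4*, *Psmb6* and *Psmb10*. The fall in controls is therefore no independent test, and more proteasome genes passed there than the 2 called here. In the Foxo knockouts the median was -0.20, against -0.01, and 0 of the 47 passed in limma, with 0.0178% of all genes called. Of all 11253 tested genes 1472 had an unadjusted p under 0.05, and of the 47 genes 10 did. The largest knockout values among those were *Psmg2* (-0.59 ± 0.16, 0.191), *Psma5* (-0.55 ± 0.19, 0.245) and *Psmb4* (-0.51 ± 0.21, 0.321). Within each combination of genotype and cre driver, 41 of 47 genes were lower in ALDH+ cells of Rip-cre controls (median -0.63, 1 library against 2), 45 of Pdx-cre controls (-0.42, 1 against 1), 36 of Rip-cre knockouts (-0.24, 3 against 3) and 36 of Pdx-cre knockouts (-0.23, 2 against 2), against 50.2% to 51.8% of all genes.

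The difference between genotypes was tested directly. For the interaction of genotype with ALDH, 43 of the 47 values were positive, against 5818 of all 11253 tested genes. A positive value means a higher ALDH+ minus ALDH- value in knockouts. All 47 values rest on the same 2 control ALDH+ libraries, so their signs are not independent. The median was 0.34, against 0.02 over all genes. None passed in limma (0% of all genes called). An unadjusted p under 0.05 was found for 2 of the 47, a share like the 476 of all 11253 tested genes. The 2 were *Psma6* (0.81 ± 0.26) and *Psmd8* (0.71 ± 0.26), both with an adjusted p of 0.998 in limma. Without the 2 libraries of smallest proteasome share the median was 0.23, and without the 3 libraries that held acinar transcripts it was 0.50. Each of these fits leaves 1 control ALDH+ library. Both settings were chosen after seeing the data, the first by the proteasome levels themselves.

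Foxo knockout and control cells of one population did not differ past the threshold in any proteasome gene. In ALDH- cells 0 of 47 passed in limma (0.0178% of all genes called, 0.00889% lower and 0.00889% higher), 33 had a negative value against 50.4% of all genes, and the median was -0.11. An unadjusted p under 0.05 was found for 3 (*Psmb5*, *Psmd9* and *Psmc3ip*), a share like the 650 of all 11253 tested genes. In ALDH+ cells 0 of 47 passed (0% of all genes called), and the median was 0.24. Of all 11253 tested genes 744 had an unadjusted p under 0.05, and of the 47 genes 8 did. Those 8 were *Psmd8* (0.65 ± 0.20, adjusted p of 0.577 in limma), *Psma6* (0.54 ± 0.20, 0.645), *Psmc3ip*, *Psmb2*, *Psmb3*, *Psmd13*, *Psmf1* and *Psmb10*, all higher in knockouts. This comparison shares the control ALDH+ libraries with that of ALDH+ and ALDH- cells in controls, so the values are not independent of it.

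**Figure D4:**
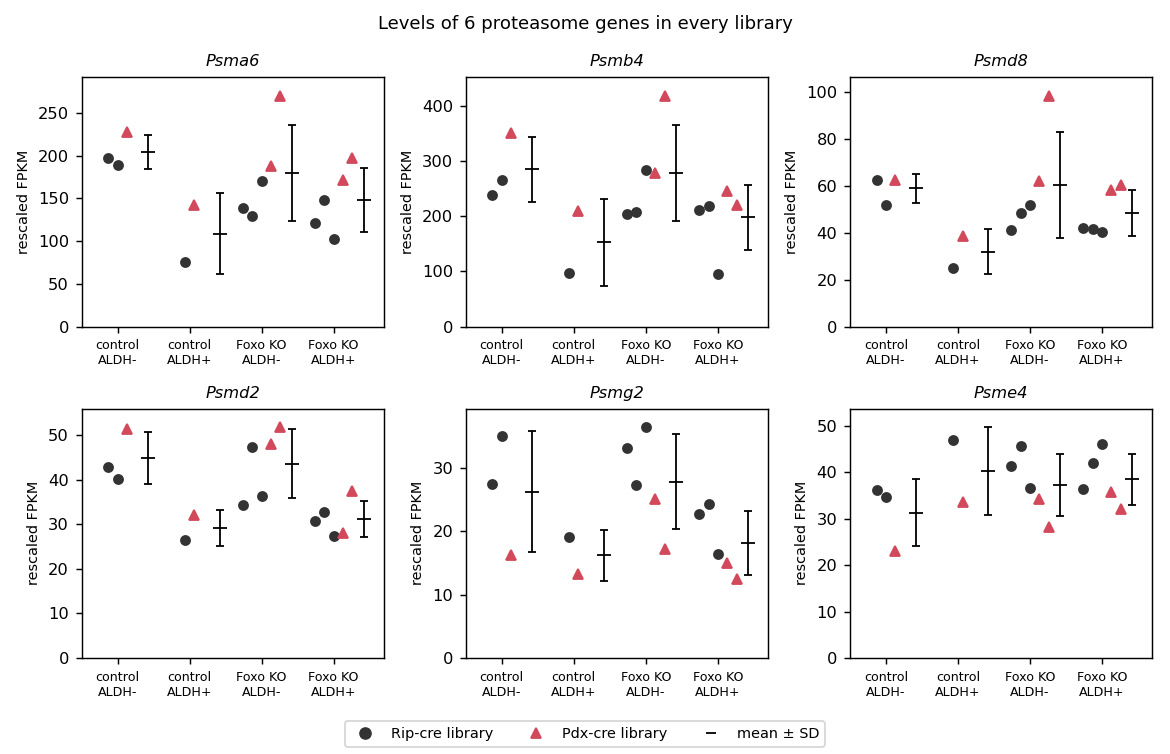
Rescaled FPKM of 6 proteasome genes in every library by group, with Rip-cre libraries as dark circles, Pdx-cre libraries as red triangles and mean ± SD beside them. *Psma6*, *Psmb4* and *Psmd8* are lowest in a Rip-cre ALDH+ library, *Psmg2* and *Psme4* are lower in Pdx-cre libraries, and *Psme4* does not follow the other genes between populations.

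Proteasome genes also differed by cre driver. With the 4 groups in the model, 15 of 47 genes were higher in Pdx-cre libraries, against 5.68% of all tested genes, and 2 were lower, against 4.05% (9.73% in either direction). The median log2 fold change was 0.31, against -0.01 over all genes. Over the core it was 0.54, and 9 of 17 passed. All 17 core values were positive, against 5534 of all 11253 tested genes. In the regulatory group 5 of 21 rose (median 0.24). Among the 15 fits that left out 1 library, *Psma6*, *Psmb8*, *Psmc3ip*, *Psmd8* and *Psmg2* passed in all, and the other called genes in 5 (*Psmb4* and *Psmc1*) to 14 (*Psma5*). None of the 47 had every Rip-cre library below every Pdx-cre library, against 1.03% of all genes, or the reverse, against 0.906%.

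*Psmb8* had the smallest p, with 25.4 to 53.1 FPKM (median 35.5) in the 6 Pdx-cre libraries and 9.53 to 30.2 (median 15.6) in the 9 Rip-cre libraries. Of the Rip-cre libraries only knockout ALDH- library 2, the highest, reached into the Pdx-cre range. The log2 fold change was 1.07 ± 0.22, with an adjusted p of 0.00667, and it passed in all 15 fits that left out 1 library. *Psmb10* (0.78 ± 0.25, 0.064) and *Psmb9* (0.71 ± 0.34, 0.202) did not pass, while *Psmb5*, which *Psmb8* replaces, did (0.54 ± 0.14, 0.0247), from a median of 75.8 in Rip-cre to 109 in Pdx-cre libraries. The share of *Psmb8* in this pair was 20.6% to 32.6% in Pdx-cre and 13.4% to 25.6% in Rip-cre libraries. The cap gene *Psme2* was higher as well (0.66 ± 0.17, 0.0228), at 39.7 to 86.2 FPKM (median 58.8) against 20.9 to 61.7 (median 37.7).

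The alpha subunits that rose were *Psma6*, from a median of 139 to one of 192.5 FPKM, *Psma5*, from 35.4 to 53.5, *Psma7*, from 197 to 242.5, and *Psma2*, from 128 to 151. Their log2 fold changes were 0.45 to 0.65, with adjusted p of 0.00861 to 0.0309 (limma). The beta subunits *Psmb6* (median 82.7 to 115), *Psmb3* (41.2 to 56.3) and *Psmb4* (212 to 262) rose by 0.55 to 0.60, with adjusted p of 0.0272 to 0.0409 (limma). In the regulatory particle *Psmd8* (41.9 to 61.2), *Psmd14*, the deubiquitinase of the lid (42.04 to 56.5), *Psmd13* (20.3 to 25.3) and the ATPase *Psmc1* (55.2 to 68.9) rose by 0.45 to 0.62, with adjusted p of 0.0146 to 0.0343 (limma). All ranges overlapped between the drivers.

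*Psmc3ip*, which is no subunit, had the largest cre difference, 2.03 ± 0.44 (adjusted p of 0.00852). It stood at 7.40 to 40.4 FPKM (median 29.2) in Pdx-cre and at 0.955 to 18.3 (median 2.76) in Rip-cre libraries, resting on 7 to 295 fragments. Among Rip-cre libraries the 3 controls and knockout library 1 of both populations were at or under 2.76, and knockout libraries 2 and 3 of both were at 11.3 to 18.3. *Psmg2* was lower with Pdx-cre (-0.63 ± 0.14, 0.00912), at 12.5 to 25.02 FPKM (median 15.6) against 16.4 to 36.4 (median 27.4). *Psme4* was lower too (-0.40 ± 0.11, 0.0263), at 22.9 to 35.8 (median 32.8) against 34.7 to 46.9 (median 41.3).

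**Figure D5:**
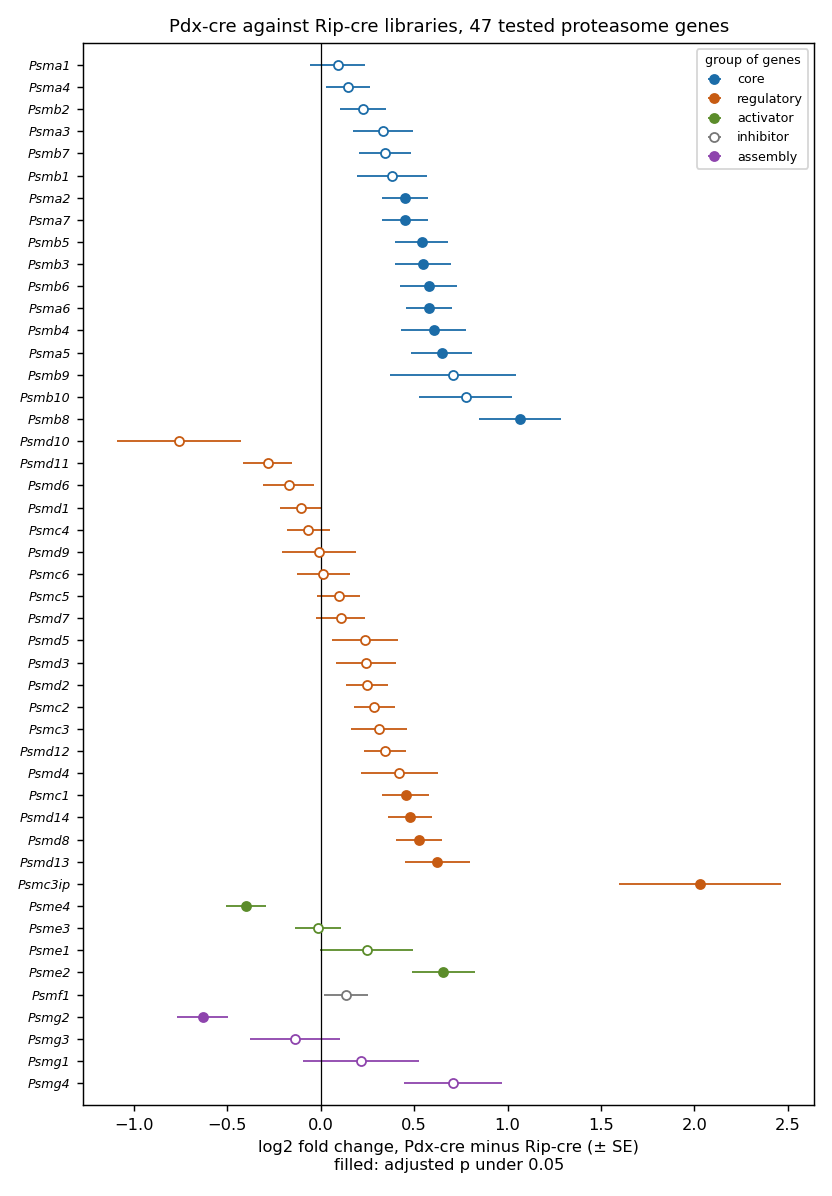
Log2 fold change (Pdx-cre minus Rip-cre, bars ± SE) of the 47 tested proteasome genes, coloured by group and filled where the adjusted p was under 0.05. All 17 core genes lie right of 0, up to 1.07 for *Psmb8*, while *Psmg2* and *Psme4* are the filled points to the left.

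Cell type markers moved with the cre driver. The beta cell markers *Slc2a2*, *Mafa*, *Nkx6-1*, *Pdx1* and *Ucn3* were lower with Pdx-cre (log2 fold changes of -2.87 to -0.98, adjusted p of 3.38e-06 to 0.0227 in limma). *Gcg* and *Irx2* of alpha cells, *Sst* of delta cells and *Ppy* of PP cells were higher, by 1.20 to 3.13. Of the leukocyte genes, *Cd68* and *Cd74* were higher (1.46 and 1.804), with a list sum of 42.2 to 169 FPKM against 20.9 to 37.0, while *Ptprc*, *Emr1*, *Itgam*, *Lyz2* and *Cd3e* stayed under 1 FPKM in every library. Without the 3 libraries that held acinar transcripts the median over the 47 genes was 0.19, against 0.31 with all libraries. That setting was chosen after seeing the data and leaves 1 control ALDH+ library. The part of cell make-up in the cre difference was not tested, and age, driver and the time of recombination cannot be told apart from it. For the interaction of cre driver with ALDH, 0 of 47 passed in limma (0% of all genes called) and the median was 0.08. Only *Psmd6* (1 of 47) had an unadjusted p under 0.05, against 511 of all 11253 tested genes.

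The pathway around the proteasome was followed through 4 lists. Of the ubiquitin and delivery genes, *Rps27a*, which encodes ubiquitin fused to a ribosomal protein, fell in ALDH+ cells (-0.98 ± 0.15, adjusted p of 0.00383 in limma). The polyubiquitin gene *Ubb* (-0.48 ± 0.16, 0.0792) did not pass. Of 10 subunits and partners without a Psm symbol, 1 fell, against 3.76% of all tested genes called lower. It was *Shfm1*, the smallest subunit of the lid (-1.29 ± 0.21, adjusted p of 0.00504 in limma), from a median of 127 to one of 71.8 FPKM, with a list median of -0.17. None of 7 transcription control genes passed (0 at an unadjusted p under 0.05, median 0.05), *Nfe2l2* among them (-0.13 ± 0.20, 0.764). None of 15 antigen presentation and interferon response genes passed either (2 at an unadjusted p under 0.05, median -0.15), with *Tapbp*, a peptide loading chaperone, nearest (-0.55 ± 0.16, 0.0536).

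With Pdx-cre, 5.68% of all tested genes were called higher and 4.05% lower, and in lists this short 1 call is not set apart from those shares. Of the 15 antigen presentation genes 3 rose, *Tap1*, the peptide transporter whose gene lies beside *Psmb8* and *Psmb9* (1.02 ± 0.26, adjusted p of 0.0202 in limma), *Tapbp* (0.51 ± 0.15, 0.0447) and *H2-D1* (0.45 ± 0.13, 0.0362). *Pomp*, which matures the core, rose as well (0.44 ± 0.10, 0.0124), the 1 of 10 partners to do so. Of the ubiquitin list *Ubb* (0.51 ± 0.15, 0.0402) rose and *Ubqln2*, a shuttle protein, fell (-0.52 ± 0.13, 0.018). *Maff* was the 1 transcription control gene that rose (1.73 ± 0.42, 0.0173).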

How the data were processed

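Each library's file, as the authors deposited it, lists FPKM and confidence bounds by gene, and has the layout of Cufflinks per the file headers. The submitters' notes name bcl2fastq 1.8.4, TopHat2 2.0.4 and build mm9, and the Cufflinks version and annotation are not given in the sources used here. The study's own tests were negative binomial tests of counts, which could not be run on FPKM. Fragments behind a value were recovered from the bounds, taken as 2 standard errors, and 66.2% of those under 500 came within 0.02 of a whole number, so no count test was run. Of the entries, 248 symbols listed more than once (712 lines) and 63 failed or too deep lines were left out, leaving 22924 genes. Rescaling between libraries used a trimmed mean of log ratios of FPKM without weights, and all FPKM values are given on that scale. Genes with a mean of at least 1 FPKM (11253) were tested with limma 3.58.1 in R 4.3.3, with trend, on log2(FPKM + 1), a scale that understates changes of low genes, over 4 groups and the cre driver, two-sided, with Benjamini-Hochberg adjustment over all tested genes and a threshold of 0.05. The pipeline was tested on simulated data. Pearson's r between libraries of a group was 0.936 to 0.982. The members and lists were chosen with earlier results of these data known. Values in every library are given for the 4 members with the smallest p in the average ALDH comparison (either direction, if past the threshold), the catalytic subunits, the activators, the inhibitor and members past the threshold elsewhere, the last as ranges by cre driver. Promoters are RefSeq's (GRCm38.p6), matched by symbol or synonym, ignoring case for tested genes. Matching with case gave 8999 genes, just under the 80% of tested genes set as the minimum for such a comparison. Gene positions are those of the files (mm9). Transcript lengths are the longest per symbol in GENCODE. Alternatives were another pseudocount, filter, scaling or trend setting, length correction, other models and leaving out libraries. Some genes of the marker and pathway lists are not reported here.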

Additional observations from a re-analysis of the deposited data

Results flagged for a closer look

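In 3 of 94 groups of 5 knockout libraries looked at (47 genes in 2 populations), 1 library stood far from the other 4, and chance gives about 1 in 20. *Psma2* was at 212 FPKM in knockout ALDH- library 5, against 121 to 144 in the others. *Psmb1* was at 44.7 in knockout ALDH+ library 3, against 81.6 to 92.0. *Psmb4* was at 95.6 in the same library, against 212 to 245.0. That library also held the highest summed level of nuclear RNAs (4834 FPKM), and the part of this in its low values was not tested. No proteasome gene passed the test of the difference between genotypes or between cre drivers in its ALDH effect.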

How the results depend on the processing

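The number of proteasome genes called in the average ALDH comparison (12) became 6 with no filter on low values, 4 with no trend, 1 with the length trend removed, 0 with no cre driver in the model, 2 in Rip-cre libraries only and 0 in Pdx-cre libraries only. In controls (2) it became 1 with no rescaling, 0 with no trend, 0 with the length trend removed, 0 with no cre driver, 0 within either driver and 6 with the compared groups only. For the cre driver (17) it became 8 with no trend and 6 with the length trend removed. Without the 2 libraries of smallest proteasome share it was 0, 0 and 5 for these 3 comparisons, and without the 3 libraries with acinar RNA it was 3 for the average ALDH comparison and 0 for the cre driver; both settings were chosen after seeing the data. With fewer libraries the tests also have fewer samples. The smallest-share libraries, both ALDH+, were picked by the proteasome levels themselves, so leaving them out is bound to shrink the ALDH difference. Otherwise the cause was not tested. Leaving out 1 library at a time gave 0 to 13, 0 to 4 and 6 to 18, and 0 to 0 in the other comparisons. In the average ALDH comparison it was 0 without control ALDH+ 1, 3 without control ALDH- 2, 6 without control ALDH- 1, knockout ALDH- 3 or knockout ALDH+ 5, and 7 without knockout ALDH- 1 or 5 or knockout ALDH+ 3 or 4. For the cre driver it was 7 without control ALDH- 3 or knockout ALDH- 5, and 6 without control ALDH+ 1 or 2 or knockout ALDH+ 5. The group medians kept their sign throughout, with leave-one-out ranges of -0.54 to -0.31 (core), -0.35 to -0.25 (regulatory), -0.29 to -0.11 (activators) and -0.67 to -0.46 (assembly, -0.24 with the length trend removed).

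The replicate block, pairing same-numbered libraries, gave 0 and 0 calls in the ALDH comparisons (average and controls) and 17 for the cre driver, and a replicate block within cre driver gave 3, 0 and 16. Deviations of same-numbered libraries correlated at -0.045 to 0.070, and those of libraries paired within cre driver at -0.076 to 0.070. None was over 0.1. Yet acinar transcripts summed to 390.0 FPKM in knockout ALDH- library 5 and to 685.0 in knockout ALDH+ library 5. In controls they summed to 1404 in ALDH+ library 2, to 0.441 in ALDH- library 2 and to 9.24 in ALDH- library 3. Whether the numbers pair samples was not settled.

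Single values that changed sign had not passed the test. The settings other than leaving out 1 library were followed for the called genes, the catalytic subunits, the activators and the inhibitor. For ALDH the changes among these were *Psmb5* (0.096) and *Psmc3ip* (0.021) with the length trend removed, *Psmc3ip* (0.006) in Rip-cre libraries, *Psmb7* (0.143) and *Psmb9* (0.317) with the replicate block, *Psmb9* without the acinar libraries (0.038) and *Psmb8* (0.054) without the smallest-share libraries. Leaving out 1 library, over all 47 genes, gave -0.359 to 0.046 for *Psmb9*, -0.468 to 0.001 for *Psme1*, -0.238 to 0.026 for *Psma4*, -0.082 to 0.026 for *Psmc6*, -0.137 to 0.083 for *Psmd5* and -0.275 to 0.091 for *Psmd10*. For the cre driver the changes were *Psmb2* (-0.041) and *Psmc5* (-0.075) with the length trend removed and, when 1 library was left out, *Psme3* (-0.061 to 0.077), *Psmc6* (-0.063 to 0.132), *Psmd9* (-0.115 to 0.144) and *Psmg3* (-0.234 to 0.142).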
